A study of Mus musculus with 19 samples.

Results

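The heat shock proteins and J-domain chaperones of cortical astrocytes are described here in the 4 groups of a mouse study of the estrous cycle. Members were chosen by gene symbol: the Hsp70 and Hsp110 genes, the Hsp90 genes, the mitochondrial chaperonin pair, the small heat shock genes, and the J-domain genes of types A, B and C. Pseudogenes (2) and 1 further small heat shock gene were left out by the rule. This gave 64 genes of 21749 in the deposited table, and all 64 were among the 20644 genes tested. The mice were of B6;FVB background with the transgene Tg(Aldh1l1-EGFP/Rpl10a)JD130Htz, in which the promoter of the astrocyte gene Aldh1l1 drives ribosomal protein L10a fused to EGFP. Every group carried this transgene, so none is a wild type. Ribosomes with the tag were pulled down and their messenger RNA was sequenced, so a value stands for ribosome-bound RNA of a gene (a translatome) and not for its protein. The groups were 4 libraries of females in estrus, 3 of females in proestrus (labelled Pro-Day), 4 of males and 8 of females in metestrus. Females were collected at hour 9 of the day. The sources used here give neither an hour for males nor the ages of the mice, and no treatment other than cycle stage is named.

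Heat shock proteins keep other proteins folded. Hsp70 proteins bind and release unfolded stretches in a cycle of ATP hydrolysis, J-domain proteins bring them their clients and speed that hydrolysis, and Hsp110 proteins exchange the nucleotide. Hsp90 proteins take over later folding steps, among them those of steroid hormone receptors, which are held by Hsp90 until hormone binds. Chaperonins enclose a client in a chamber, and small heat shock proteins hold unfolded proteins without using ATP. Heat shock factor Hsf1 switches on many of these genes through heat shock elements, repeats of a short unit in their promoters. In the endoplasmic reticulum a parallel set led by BiP (Hspa5) is switched on by the unfolded protein response.

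Values are deposited log2 values, called levels below. Libraries are named by group and by a number in accession order, which pairs nothing. Sums of the values before the log were 19838000 to 25609600 per library, with the lowest sum in Estrus replicate 4, and the correlation between libraries over the tested genes was 0.886 to 0.980. Defining astrocyte markers were high in all 19 libraries. The mean level of 10 of them was 13.93 to 14.57 in estrus, 14.32 to 14.36 in proestrus, 14.56 to 14.78 in males and 14.24 to 14.70 in metestrus. Markers of neurons (8 genes) were present too, with means of 12.26 to 12.84 over all libraries, and no library of unpurified cortex was analysed here. The labels put the libraries in 3 batches. Batches 2 and 3 held estrus, proestrus and metestrus libraries, and batch 4 held all 4 males and 5 of the metestrus libraries, so with batch in the model the stage comparisons rest on batches 2 and 3 and the male comparison on batch 4. In such bulk samples, fewer cells of a type and less RNA per cell cannot be told apart.

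The promoters of the set were searched for exact matches to the short sequences behind both switches. RefSeq promoter windows, which run from 250 bases before to 50 bases after a start in the build GRCm38.p6, were matched by symbol for 52 of the 64 members. A pair of heat shock units (GAANNTTC or TTCNNGAA, both strands) was found in 14 of the 52 members (26.9%), against 17.0% of 27025 genes with a window. A run of 3 units (the longer heat shock element, which also holds the shorter form) was found in 4 members (7.69%), namely Dnajb6, Hspd1, Hspe1 and Hsph1, against 0.662% of all genes. The endoplasmic reticulum stress element (also on both strands) was found in 3 members (5.77%), namely Hspa5, Hsp90b1 and Dnajc3, against 0.137% of all genes. A match is a description of the letters and was not tested as a site. A member outside these lists may have no window, or an element that is inexact or outside the window. The 250 bases before the start are printed for 3 genes that the text returns to, with the matched letters in capitals: Hspe1 on the plus strand of chr1:55087898-55088147, Hspa5 on the plus strand of chr2:34771840-34772089 and Hsp90b1 on the minus strand of chr10:86705445-86705694.
Hspe1: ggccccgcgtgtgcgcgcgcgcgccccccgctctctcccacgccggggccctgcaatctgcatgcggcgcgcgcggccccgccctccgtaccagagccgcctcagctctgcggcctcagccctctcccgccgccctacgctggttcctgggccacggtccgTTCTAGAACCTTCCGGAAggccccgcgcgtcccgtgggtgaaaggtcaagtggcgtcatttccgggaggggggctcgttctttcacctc
Hspa5: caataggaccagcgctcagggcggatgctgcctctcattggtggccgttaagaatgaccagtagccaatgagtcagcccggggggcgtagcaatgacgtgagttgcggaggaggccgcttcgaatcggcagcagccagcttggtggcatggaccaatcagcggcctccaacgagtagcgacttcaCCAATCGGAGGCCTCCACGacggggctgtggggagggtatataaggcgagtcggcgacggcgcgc
Hsp90b1: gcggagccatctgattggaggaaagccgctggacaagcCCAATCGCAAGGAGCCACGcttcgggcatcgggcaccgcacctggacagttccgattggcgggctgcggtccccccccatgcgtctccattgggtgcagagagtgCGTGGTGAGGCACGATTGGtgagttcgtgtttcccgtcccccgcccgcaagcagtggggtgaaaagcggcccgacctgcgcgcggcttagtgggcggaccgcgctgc

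Hspe1 and Hspd1, which encode the lid and the chamber of the mitochondrial chaperonin, are read in opposite directions from a shared region. A RefSeq window of Hspd1 shares 285 bases with that of Hspe1, so the run of heat shock units is the same site in both (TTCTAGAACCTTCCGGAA, chr1:55088059-55088076, read on the strand of Hspe1). It begins 89 bases before the start of Hspe1. In Dnajb6 the match was GAATCTTCCGGAA at chr5:29735852-29735864, and in Hsph1 it was TTCTGGAAAGTTC at chr5:149636288-149636300, inside the transcribed part. The window of Hsp90b1, the endoplasmic reticulum form of Hsp90, held 2 matches to the stress element on opposite strands. In Dnajc3, a luminal J-domain cochaperone of BiP, the match was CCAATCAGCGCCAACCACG at chr14:118937827-118937845.

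Cytosolic Hsp90 and the constitutive Hsp70 led the set. Divided by transcript length, the mean log2 level per kilobase over 19 libraries was 13.74 for Hsp90ab1 (constitutive cytosolic Hsp90), 13.69 for Hspa8 (Hsc70, the constitutive Hsp70), 13.40 for Hsp90aa1 (inducible cytosolic Hsp90) and 13.08 for Hspe1. Hsp90ab1 was above Hspa8 in 12 of 19 libraries, with a mean difference of 0.06 ± 0.14 (SD), so the order of that pair did not exceed the spread. Hspa8 was above Hsp90aa1 in 18 of 19 libraries. A gap of 1.18 ± 0.26 (SD, 19 of 19 libraries) then separated Hspe1 from Dnajc8, a J-domain protein tied to splicing, at 11.89 per kilobase. Dnajc19 (11.87), of the mitochondrial import motor, and Dnajb6 (11.60), which blocks aggregation of polyglutamine proteins, came next. The chaperonin chamber gene Hspd1 stood at 10.62 per kilobase, the endoplasmic reticulum chaperones Hsp90b1 at 9.90 and Hspa5 at 8.93, and the inducible Hsp70 genes Hspa1a and Hspa1b at 6.55 and 4.16. At the foot of the order were Dnajb13 (2.94), a protein of sperm tails and cilia, Hspa12b (2.35), an Hsp70 relative known from endothelium, and Hspb7 (0.01), a small heat shock protein known from heart and muscle. Transcript lengths came from the annotation GENCODE vM21. The principal protein-coding transcript of each gene was taken, and the longest where several ranked alike. The sources used here do not say whether the deposited values had been divided by length. The order depends on that division and on the transcript taken. On the deposited values Hsp90aa1 led at a mean level of 15.12, before Hsp90ab1 at 15.08 and Hspa8 at 14.95, Dnaja1 (12.87) stood above Hspe1 (12.71), and Dnajc5 (12.53) lay between Hspe1 and Dnajc8 (12.38), so the gap below Hspe1 was absent.

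**Figure D1:**
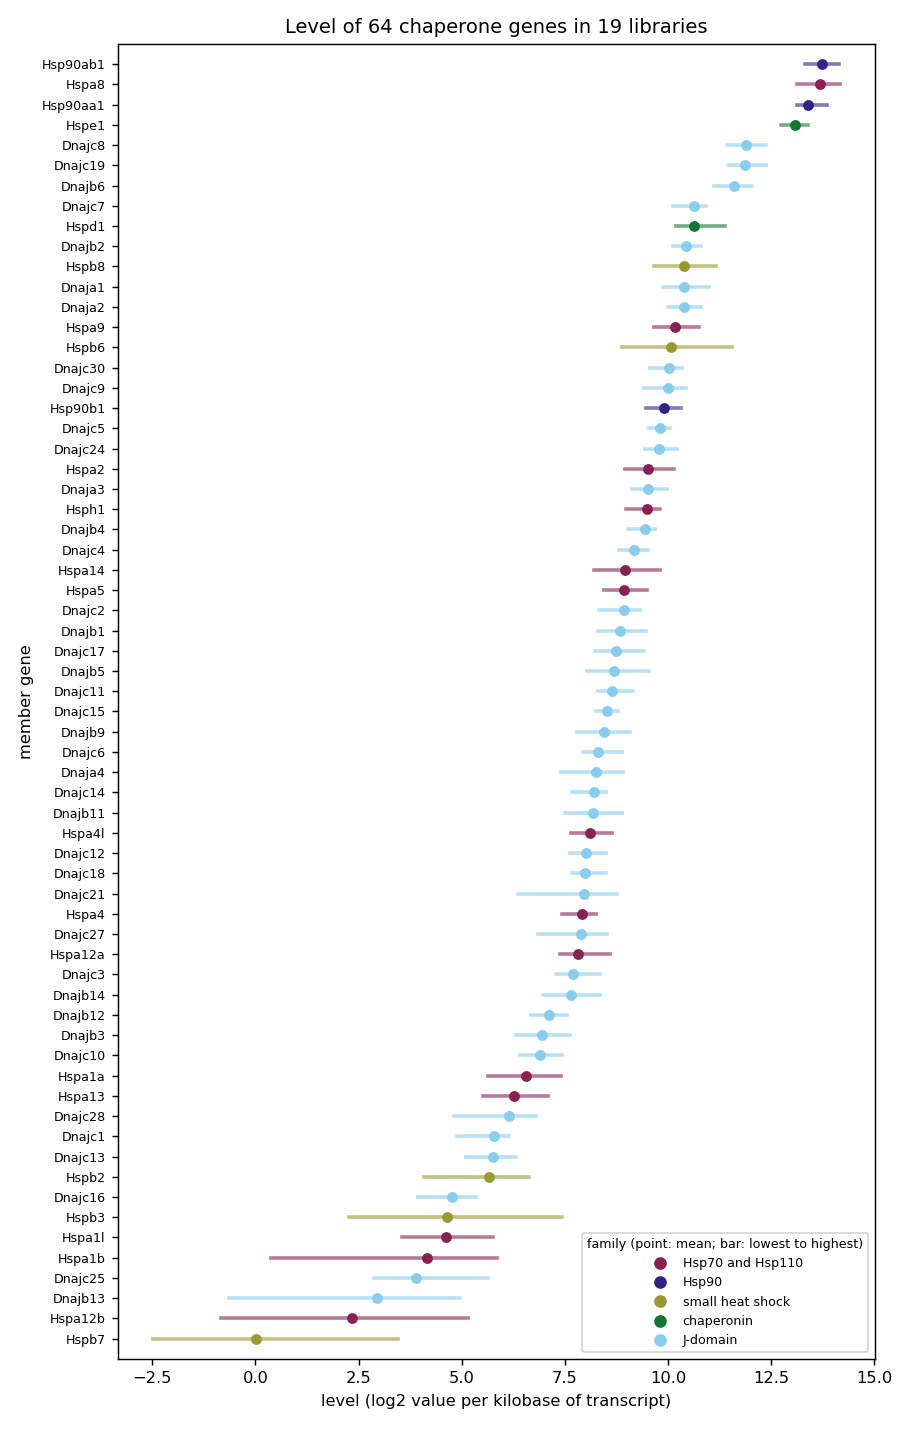
Mean level of each of the 64 members per kilobase of transcript (log2 scale, horizontal axis), ordered from Hsp90ab1 at 13.74 to Hspb7 at 0.01. Points are means over 19 libraries, bars run from the lowest to the highest library, and colours mark families: the bars of Hspa1b, Dnajb13, Hspa12b and Hspb7 are the widest.

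Most members lay well above the filter and varied less than the median tested gene. A gene was tested when at least 3 libraries reached a level of 3.32 (a value of 10 before the log), and 59 of the 64 members reached it in all 19 libraries. The exceptions were Hspa1b (18 libraries), Hspb3 (16), Dnajb13 (16), Hspa12b (12) and Hspb7 (3). The spread between libraries of a group, as the residual SD after group and batch, was below the median of all tested genes for 52 of 64 members, and the median member ranked at percentile 22.2. A mean level of at least 10 was reached by 39 members, while library medians over the tested genes were 7.47 to 7.79. Spread was not compared with that of genes of like level. The smallest residual SDs were those of Dnajc15 (0.11), Dnajc30 (0.13) and Hspe1 (0.15), all of them mitochondrial. The largest were those of Hspa12b (1.93), Dnajb13 (1.65) and Hspb3 (1.54), followed by Hspa1b (1.37).

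Across the 4 groups a single member of the set was called. Each comparison was a limma fit of group and batch to all libraries, two-sided, with Benjamini-Hochberg adjustment over the 20644 genes and a threshold of 0.05. In proestrus against metestrus 0 of 64 members passed, where 0.988% of all genes did. In estrus against metestrus 0 members passed (0.0872% of all genes), and in males against metestrus 0 members passed (0.0242%). In estrus against proestrus 1 member passed (0.94% of all genes, and 0.344% of all genes with a lower level in estrus), Hspb7, which fell. Hspb7 reached the minimum level for testing in the 3 proestrus libraries and in 0 others, so it was tested because it was high in proestrus, and its call says nothing about the set. The F test over the 4 groups gave 0 members and 0.635% of all genes. At an unadjusted p under 0.05 the members numbered 3 (4.69%, against 13.1% of all genes) in proestrus against metestrus, 6 (9.38% against 11.3%) in estrus against metestrus, 8 (12.5% against 14.5%) in estrus against proestrus, 4 (6.25% against 5.33%) in males against metestrus and 7 (10.9% against 13.9%) in the F test. These shares were below or near the background. The labels do not say that libraries came from separate animals, so p-values measure the spread between libraries. The deposited values also lack 4 directions of variation. After group and batch, 2 directions are missing from the residuals, and the residual degrees of freedom do not allow for this. With these 2 directions counted in the model, 0 members passed in each comparison.

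The intervals of the main model are a guide to how large a missed difference could be. The 95% interval of the log2 fold change lay wholly between -1 and 1 for 48 of 64 members in proestrus against metestrus (75%, against 43.4% of all genes), for 52 in estrus against metestrus (81.2% against 46.5%), for 51 in estrus against proestrus (79.7% against 45%) and for 55 in males against metestrus (85.9% against 54.7%). The genes behind the shares over all genes were not matched for level. The median half-width of a member's interval was 0.46, 0.44, 0.44 and 0.38 in the same order. These intervals are not adjusted for the number of genes. Their degrees of freedom do not allow for the missing directions, so they may be too narrow and the counts within -1 and 1 too high. A call after adjustment took a larger difference than that, so differences above the half-width could be missed too. The median fold change of the members on the log2 scale was -0.09 in proestrus against metestrus (all genes -0.09), 0.04 in estrus against metestrus (all genes -0.07), 0.12 in estrus against proestrus (all genes 0.02) and 0.03 in males against metestrus (all genes 0.04). Fold changes were above 0 for 24 members in proestrus against metestrus (37.5%, against 41.9% of all genes), 37 in estrus against metestrus (57.8% against 43.5%), 47 in estrus against proestrus (73.4% against 52%) and 35 in males against metestrus (54.7% against 55.3%). The 3 stage comparisons share libraries and are not independent of each other.

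**Figure D2:**
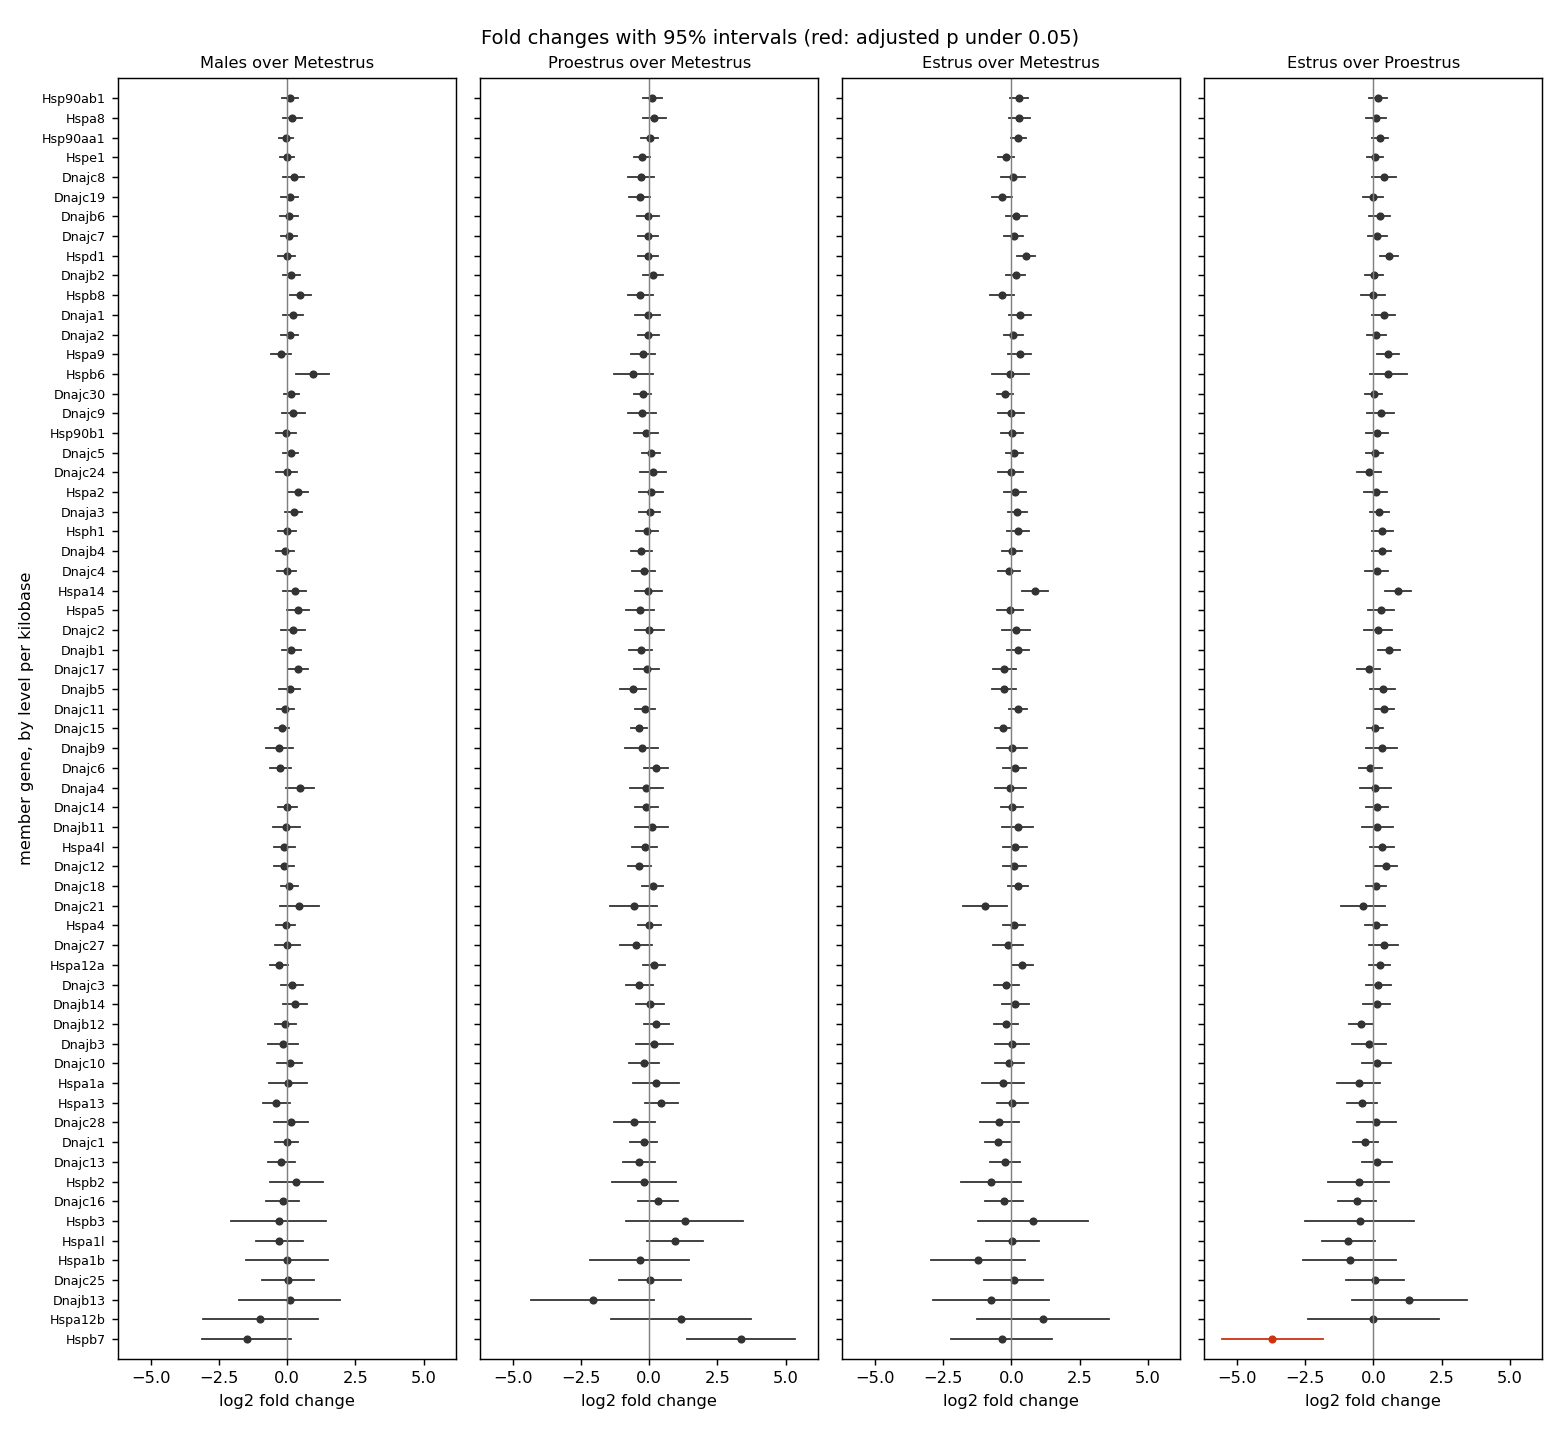
Log2 fold change (horizontal axis) of the 64 members with 95% intervals in the 4 comparisons, one row per gene in order of level per kilobase. Red marks an adjusted p under 0.05, which holds for Hspb7 in estrus over proestrus (-3.71), and intervals widen towards the low genes at the bottom.

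Hspb7 was below the minimum level for testing in every library outside proestrus. Its level was 0.26, 1.20, 1.66 and 0.74 in the estrus libraries, 4.66, 4.53 and 4.92 in the proestrus libraries, -1.02, 0.28, 0.77 and -0.67 in males, and -0.20 to 3.26 (median 1.30) in metestrus. The 3 proestrus libraries were above each of the other 16. These 3 libraries were also the ones that carried Hspb7 (ENSMUSG00000006221.8, chromosome 4) past the filter, so the gene had to differ between groups to be tested. Its log2 fold change was -3.71 in estrus against proestrus (SE 0.89, adjusted p = 0.0468 in limma), a level 13.1-fold lower in estrus. With the removed directions counted the adjusted p was 0.133, and leaving out any 1 estrus or proestrus library gave 0.0558 to 0.180. In proestrus against metestrus the value was 3.35 (SE 0.95, adjusted p = 0.0975), and both comparisons rest on the same 3 proestrus libraries. In males against metestrus it was -1.49 (SE 0.78, 95% interval -3.11 to 0.12).

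Vascular markers were read beside Hspb7. Of 6 endothelial and mural markers, 6 had a lower fitted level in estrus than in proestrus and 0 passed the test. Their mean level was 5.89 to 6.86 in estrus and 6.95 to 7.30 in proestrus, without overlap, but it was 6.80 to 7.99 in males and 6.57 to 7.55 in metestrus, where Hspb7 was low. Acta2, a smooth muscle actin, had a log2 fold change of 1.49 in proestrus against metestrus (SE 0.51, limma adjusted p = 0.192), the highest value of the list, in which 3 markers were positive and 3 negative (median -0.08). The part of these cells in the level of Hspb7 was not tested.

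The other small heat shock genes gave no call. Hspb6 (Hsp20), a phosphorylated partner of actin-associated proteins, was 11.04, 10.65, 12.01 and 11.57 in males and 9.83 to 10.84 (median 10.40) in metestrus, with 1 male library inside the metestrus range. Its log2 fold change was 0.94 (SE 0.29, unadjusted p = 0.00373, limma adjusted p = 0.796). Proestrus libraries had 9.62, 9.33 and 10.67. Hspb8, which works with Bag3 in the disposal of misfolded proteins, was 12.02, 11.36, 11.80 and 11.72 in males and 10.97 to 11.63 (median 11.21) in metestrus, a log2 fold change of 0.48 (SE 0.18, limma adjusted p = 0.856). Hspb2 and Hspb3, which form a complex in muscle, were lower and variable. Hspb3 ran from 2.22 to 7.09 within estrus alone. Hspb2 overlaps Cryab on the opposite strand, and the sources used here do not say whether counting used strand.

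Several marker lists had higher fitted levels in males beside Hspb6 and Hspb8. The 10 handling and immediate early genes, such as Fos and Egr1, had mean levels of 9.24 to 10.44 in males and 8.35 to 9.52 in metestrus. All 10 had positive fold changes in males against metestrus (55.3% of all genes), 8 at an unadjusted p under 0.05 (5.33% of all genes) and 0 past the threshold, and Fos had a log2 fold change of 1.61 (SE 0.49, limma adjusted p = 0.796). The astrocyte markers had positive values in 8 of 10 genes (median 0.24), and the endothelial and mural markers in 5 of 6 (median 0.43), with 0 past the threshold in both lists. The part of these lists in the values of Hspb6 and Hspb8 was not tested.

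Among the Hsp70 genes, Hspa14 came closest to a call. Hspa14 (ENSMUSG00000109865.2, chromosome 2) pairs with the J-domain protein Dnajc2 on the ribosome, where the complex meets new protein chains. Its level was 10.48, 10.45, 10.65 and 10.16 in estrus, 9.80, 9.11 and 9.70 in proestrus, 10.18, 9.68, 9.88 and 9.69 in males, and 9.05 to 10.04 (median 9.60) in metestrus. Each estrus library was above every proestrus and every metestrus library. Estrus against proestrus gave a log2 fold change of 0.90 (SE 0.23, 95% interval 0.42 to 1.37, limma adjusted p = 0.0605), and estrus against metestrus one of 0.86 (SE 0.23, 95% interval 0.39 to 1.34, limma adjusted p = 0.144). Without Estrus replicate 4 the adjusted p of the first was 0.0372, and without a batch term both passed (0.0359 and 0.00823). Neither passed with the missing directions counted, with only batches holding both groups, or without any other estrus or proestrus library. Dnajc2, the partner of Hspa14, had log2 fold changes of 0.17 (SE 0.24) in both comparisons. In GENCODE vM21 Hspa14 overlaps a predicted protein-coding gene on the same strand, so reads may be split between the pair.

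Oligodendrocyte markers had a higher mean level in the same estrus libraries than in metestrus. Their mean level over 6 genes was 11.23 to 11.68 in estrus, 11.03 to 11.36 in proestrus, 10.62 to 11.29 in males and 10.89 to 11.13 in metestrus. The estrus and metestrus libraries did not overlap, while estrus overlapped proestrus and males. Of the 6 genes, 6 had positive fold changes in estrus against metestrus (43.5% of all genes) and 4 in estrus against proestrus (52%), with 0 past the threshold. At an unadjusted limma p under 0.05 there were 3 (11.3% of all genes) and 1 (14.5%) in the same order. Neuron markers had positive fold changes in 6 of 8 genes in both comparisons (medians 0.22 and 0.21), with 0 past the threshold. Their mean level was 12.35 to 12.84 in estrus, 12.32 to 12.65 in proestrus and 12.26 to 12.75 in metestrus, with overlap. The part of either cell type in the estrus values of Hspa14 and Hspd1 was not tested.

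The main Hsp70 genes gave no call. Hspa8, which also strips clathrin from vesicles, was 15.43, 15.29, 15.08 and 14.69 in estrus, 15.24, 14.92 and 14.84 in proestrus, 15.10, 14.55, 15.18 and 15.18 in males and 14.38 to 15.21 (median 14.81) in metestrus, and the groups overlapped. Its log2 fold changes were 0.28 (95% interval -0.10 to 0.67) in estrus against metestrus, 0.19 (-0.22 to 0.60) in proestrus against metestrus and 0.19 (-0.15 to 0.52) in males against metestrus. The stress-inducible Hspa1a had 7.84 ± 0.62 in estrus and 8.35 ± 0.62 in proestrus (SD, n = 4 and 3), and its log2 fold change was -0.54 (95% interval -1.33 to 0.24). In males it had 8.19 ± 0.42 (SD, n = 4), against 8.15 ± 0.51 in metestrus (SD, n = 8). Hspa1b was 5.76, 6.17, 1.86 and 5.05 in estrus, so a single library set most of its spread there, and its interval in estrus against metestrus ran from -2.93 to 0.49. Hspa1a and Hspa1b are near-identical genes, and how reads were divided between them is uncertain. Hspa1l, a testis form, was 5.47, 5.82, 6.01 and 6.14 in estrus and 6.42, 7.06 and 6.90 in proestrus, without overlap, a log2 fold change of -0.91 (SE 0.47, limma adjusted p = 0.376).

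Hspa12a, an Hsp70 relative abundant in brain, was 10.66, 10.69, 11.12 and 10.34 in estrus and 10.03 to 10.64 (median 10.28) in metestrus, with a log2 fold change of 0.40 (SE 0.18, limma adjusted p = 0.410). In males it was 9.90 to 10.22, with a fold change of -0.31 (95% interval -0.64 to 0.02) against metestrus. Hspa2, best known from sperm development, was 11.48, 11.03, 11.11 and 10.98 in males and 10.31 to 11.22 (median 10.73) in metestrus, a log2 fold change of 0.40 (SE 0.18, limma adjusted p = 0.898). Hspa12b ranged over 2.31 to 6.91 in estrus and 0.93 to 6.45 in metestrus, and its 95% interval in estrus against metestrus ran from -1.25 to 3.58. The 3 Hsp110 exchange factors Hsph1, Hspa4 and Hspa4l had log2 fold changes of 0.10 to 0.33 in estrus against proestrus. Hsph1 was 11.63, 11.74, 11.74 and 11.44 in estrus and 11.43, 11.44 and 10.99 in proestrus, where the lowest estrus library lay just above the highest proestrus one. Its fold change was 0.33 (SE 0.19, limma adjusted p = 0.433).

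Hsp90, the chaperone of the estrogen and progesterone receptors, gave no call in any comparison. Hsp90aa1 was 15.36, 15.57, 15.42 and 15.00 in estrus, 15.20, 15.07 and 14.93 in proestrus, 14.99, 14.97, 15.24 and 14.96 in males, and 14.85 to 15.36 (median 15.01) in metestrus. The log2 fold change was 0.25 (95% interval -0.04 to 0.53) in estrus against proestrus, 0.26 (-0.03 to 0.54) in estrus against metestrus, 0.01 (-0.30 to 0.31) in proestrus against metestrus and -0.04 (-0.29 to 0.21) in males against metestrus. These intervals of the main model lie within -1 and 1. Hsp90ab1 was 15.39, 15.47, 15.33 and 14.91 in estrus and 14.65 to 15.35 (median 14.87) in metestrus, a log2 fold change of 0.29 (95% interval -0.05 to 0.63). In both genes Estrus replicate 4 was the lowest estrus library. Of the Hsp70 and Hsp90 cochaperones and heat shock factors, 30 genes were tested, and 0 passed in any of the 4 comparisons.

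The cochaperones with the smallest p were given by name. Ahsa1, which activates the ATPase of Hsp90, had 11.93 ± 0.50 in estrus and 11.39 ± 0.20 in proestrus (SD, n = 4 and 3), for a log2 fold change of 0.50 (SE 0.18, limma adjusted p = 0.200). Its relative Ahsa2 had 9.13 ± 0.49 in estrus and 9.98 ± 0.21 in metestrus (SD, n = 8), for a log2 fold change of -0.86 (SE 0.24, limma adjusted p = 0.168). Cryab, the small heat shock protein alpha-B crystallin, had 13.04 ± 0.48 in estrus and 13.71 ± 0.12 in metestrus, a log2 fold change of -0.69 (SE 0.19, limma adjusted p = 0.163). Bag6, which guards tail-anchored proteins, had 10.10 ± 0.11 in estrus and 10.63 ± 0.26 in proestrus, a log2 fold change of -0.52 (SE 0.21, limma adjusted p = 0.234). Tomm70a, a mitochondrial receptor for Hsp90 and Hsp70 clients, had 11.29 ± 0.15 in proestrus and 10.84 ± 0.12 in metestrus, a log2 fold change of 0.44 (SE 0.17, limma adjusted p = 0.268). The directions differed between these genes.

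**Figure D3:**
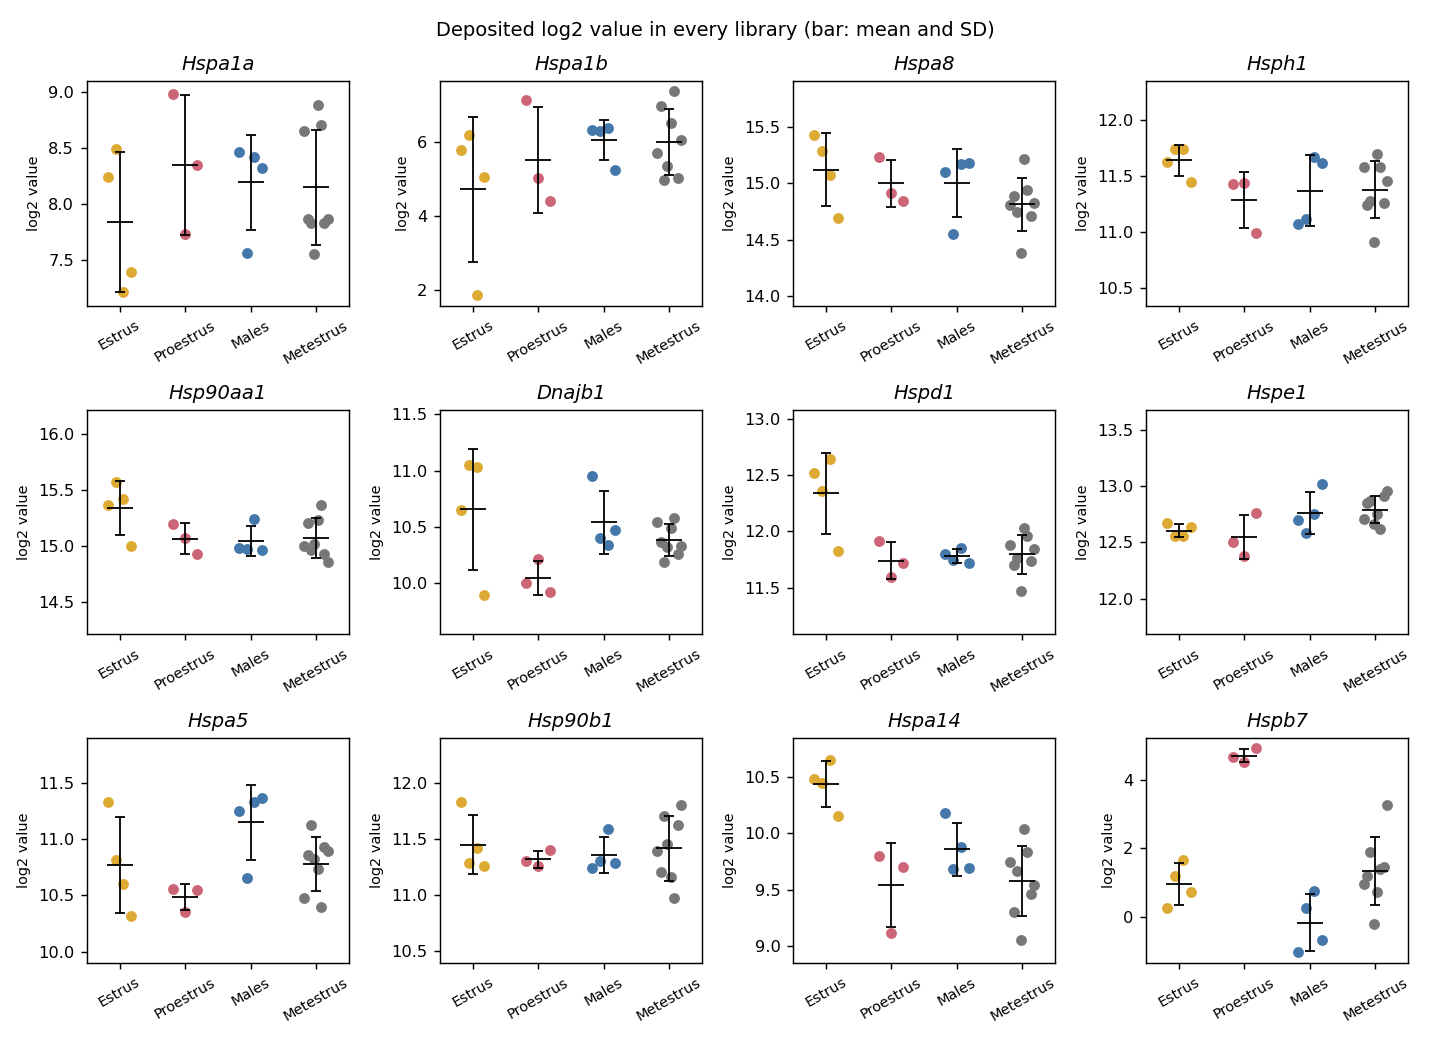
Deposited log2 value (vertical axis) of 12 members in each of the 19 libraries by group, with the mean and SD as black bars. The 3 proestrus libraries of Hspb7 sit at 4.53 to 4.92, above all others, the 4 estrus libraries of Hspa14 sit at 10.16 to 10.65, and the groups of Hspa8, Hsp90aa1 and Hspe1 overlap.

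The mitochondrial chaperones held the next candidates, and both parts of the chaperonin are given side by side. Hspd1 (ENSMUSG00000025980.15, chromosome 1) was 12.52, 12.36, 12.65 and 11.82 in estrus, 11.91, 11.59 and 11.72 in proestrus, 11.80, 11.74, 11.86 and 11.72 in males, and 11.47 to 12.03 (median 11.80) in metestrus. Estrus replicates 1, 2 and 3 were above all other libraries and Estrus replicate 4 was not. The log2 fold change was 0.58 in estrus against proestrus (SE 0.17, 95% interval 0.23 to 0.92, limma adjusted p = 0.0873) and 0.54 in estrus against metestrus (SE 0.17, 95% interval 0.19 to 0.88, limma adjusted p = 0.220). Without Estrus replicate 4, which is the only estrus library of batch 3, the first was 0.76 (adjusted p = 0.0248). Hspd1 passed in neither comparison with the missing directions counted, in batches holding both groups alone, or without another estrus or proestrus library. Hspe1, its lid, was 12.67, 12.56, 12.55 and 12.63 in estrus, 12.50, 12.37 and 12.77 in proestrus and 12.62 to 12.96 (median 12.80) in metestrus. Its log2 fold change was 0.07 (95% interval -0.22 to 0.35) in estrus against proestrus and -0.19 (-0.48 to 0.09) in estrus against metestrus, although both genes share the promoter region printed above. The difference between the fold changes of Hspd1 and Hspe1 was not tested. The genes overlap on opposite strands by 112 bases.

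Hspa9 (mortalin), the Hsp70 of the mitochondrial import motor, was 12.37, 12.10, 12.32 and 11.67 in estrus and 11.94, 11.38 and 11.34 in proestrus, a log2 fold change of 0.53 (SE 0.20, limma adjusted p = 0.203). Dnajc15 (MCJ), a J-domain protein of the inner membrane that slows the respiratory chain, was 10.96, 10.88 and 11.05 in proestrus, 11.05, 11.03, 10.98 and 11.01 in estrus, and 11.28 to 11.43 (median 11.31) in metestrus. Neither cycle group overlapped metestrus. The log2 fold change was -0.38 (SE 0.14, limma adjusted p = 0.237) in proestrus against metestrus and -0.32 (SE 0.13, limma adjusted p = 0.385) in estrus against metestrus, and both share the metestrus libraries. Males had 10.99 to 11.40. Its relative Dnajc19 was 10.87, 10.90 and 11.42 in proestrus, 11.02, 11.06, 11.02 and 11.05 in estrus, and 11.06 to 11.59 (median 11.43) in metestrus, with a log2 fold change of -0.35 (95% interval -0.71 to 0.01) in estrus against metestrus. Dnajc30 was 11.07, 10.94, 10.94 and 10.93 in males and 10.70 to 10.92 in metestrus, and it was the member whose male and metestrus libraries did not overlap (1 of 64, against 1.44% of all genes). Its fold change was 0.15 (95% interval -0.11 to 0.42). Dnajc11, of the inner membrane scaffold, had 0.40 in estrus against proestrus (SE 0.17, limma adjusted p = 0.260).

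The list of 10 mitochondrial members had 9 positive fold changes in estrus against proestrus (median 0.11) and 9 negative ones in proestrus against metestrus (median -0.24), and the proestrus libraries are common to both. The pathway list of 12 other mitochondrial folding and import genes gave 0 calls in each comparison. Clpx, an unfoldase of the matrix, had 10.46 ± 0.66 in estrus (SD, n = 4) and 9.67 ± 0.24 in metestrus (SD, n = 8), for a log2 fold change of 0.76 (SE 0.26, limma adjusted p = 0.267). Grpel2, the nucleotide exchange factor of Hspa9, had 8.88 ± 0.23 in proestrus (SD, n = 3) and 9.55 ± 0.19 in metestrus, a log2 fold change of -0.70 (SE 0.26, limma adjusted p = 0.229). Of the 14 genes of the cytosolic chaperonin TRiC and of prefoldin, 0 passed in any comparison, and 14 had positive fold changes in estrus against proestrus (median 0.19, range 0.02 to 0.63, against 52% positive over all genes). Cct8, a subunit of the ring, had 12.09 ± 0.33 in estrus and 11.54 ± 0.25 in metestrus, a log2 fold change of 0.54 (SE 0.18, limma adjusted p = 0.255).

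The 13 endoplasmic reticulum chaperones gave no call. BiP (Hspa5) was 11.34, 10.82, 10.60 and 10.32 in estrus, 10.56, 10.35 and 10.55 in proestrus, 11.25, 10.66, 11.33 and 11.37 in males, and 10.40 to 11.13 (median 10.84) in metestrus. The log2 fold change was 0.28 (95% interval -0.19 to 0.75) in estrus against proestrus, -0.34 (-0.84 to 0.16) in proestrus against metestrus and 0.39 (-0.02 to 0.81) in males against metestrus, where 3 of 4 males were above all metestrus libraries. Hsp90b1 (Grp94) was 11.83, 11.28, 11.42 and 11.26 in estrus, 11.30, 11.26 and 11.40 in proestrus and 10.97 to 11.80 (median 11.43) in metestrus, with fold changes of 0.13, -0.11 and 0.02 in the order estrus against proestrus, proestrus against metestrus and estrus against metestrus. Hspa13, a microsomal Hsp70 relative, was 8.88, 9.17 and 8.34 in proestrus and 8.07 to 8.62 (median 8.35) in metestrus, a fold change of 0.45 (95% interval -0.15 to 1.04). Dnajc1, a membrane partner of BiP at the ribosome, was 8.21, 7.35, 7.81 and 8.16 in estrus and 8.27 to 8.60 (median 8.38) in metestrus, without overlap, with a fold change of -0.51 (SE 0.22, limma adjusted p = 0.403). Dnajb12, of the membrane, was 8.96, 8.64, 8.38 and 8.31 in estrus and 8.98, 9.05 and 8.98 in proestrus, with a fold change of -0.44 (SE 0.21, limma adjusted p = 0.332). Dnajc16 was 7.07, 6.51, 7.63 and 7.19 in estrus and 7.70, 7.65 and 7.76 in proestrus, also without overlap.

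In some libraries most of these 13 members lay on the same side of their fitted values. In Metestrus replicate 3 all 13 lay above the value fitted for their group and batch, and in Metestrus replicate 1 0 of 13 did. In Estrus replicate 1 the number was 11 and in Estrus replicate 4 it was 1. Over all 64 members the numbers in these libraries ran the same way. They were 52 in Metestrus replicate 3, 17 in Metestrus replicate 1, 53 in Estrus replicate 1 and 14 in Estrus replicate 4. Other libraries differed: Metestrus replicate 5 had 2 of the 13 and 41 of the 64 above, and Males replicate 1 had 2 and 32. A difference between the list and the whole set was not tested. The pair of the list most often on the same side of the fitted values, picked for that, was Hsp90b1 and Dnajc10, in 17 of 19 libraries. Dnajc10, a luminal disulfide reductase that works with BiP, was on the same side as BiP (Hspa5) in 13. Over the 78 pairs of the list the median was 12 libraries (6 to 17), against 11 (2 to 19) over all 2016 pairs of members. Of the 20 genes of the pathway list on stress and folding in the endoplasmic reticulum, 1 passed in 1 comparison. Trib3, a pseudokinase induced through Atf4, had 5.65 ± 1.10 in proestrus (SD, n = 3) and 1.57 ± 0.74 in metestrus (SD, n = 8), and it rose with a log2 fold change of 4.00 (SE 0.93, limma adjusted p = 0.0373, or 0.114 with the removed directions counted). Trib3 reached the minimum level for testing in the 3 proestrus libraries, 1 estrus library, 0 males and 0 metestrus libraries, so like Hspb7 it was tested because it was high in proestrus. Atf4 had -0.45 (95% interval -1.04 to 0.13) in the same comparison, and 14 of the 20 genes had negative fold changes.

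**Figure D4:**
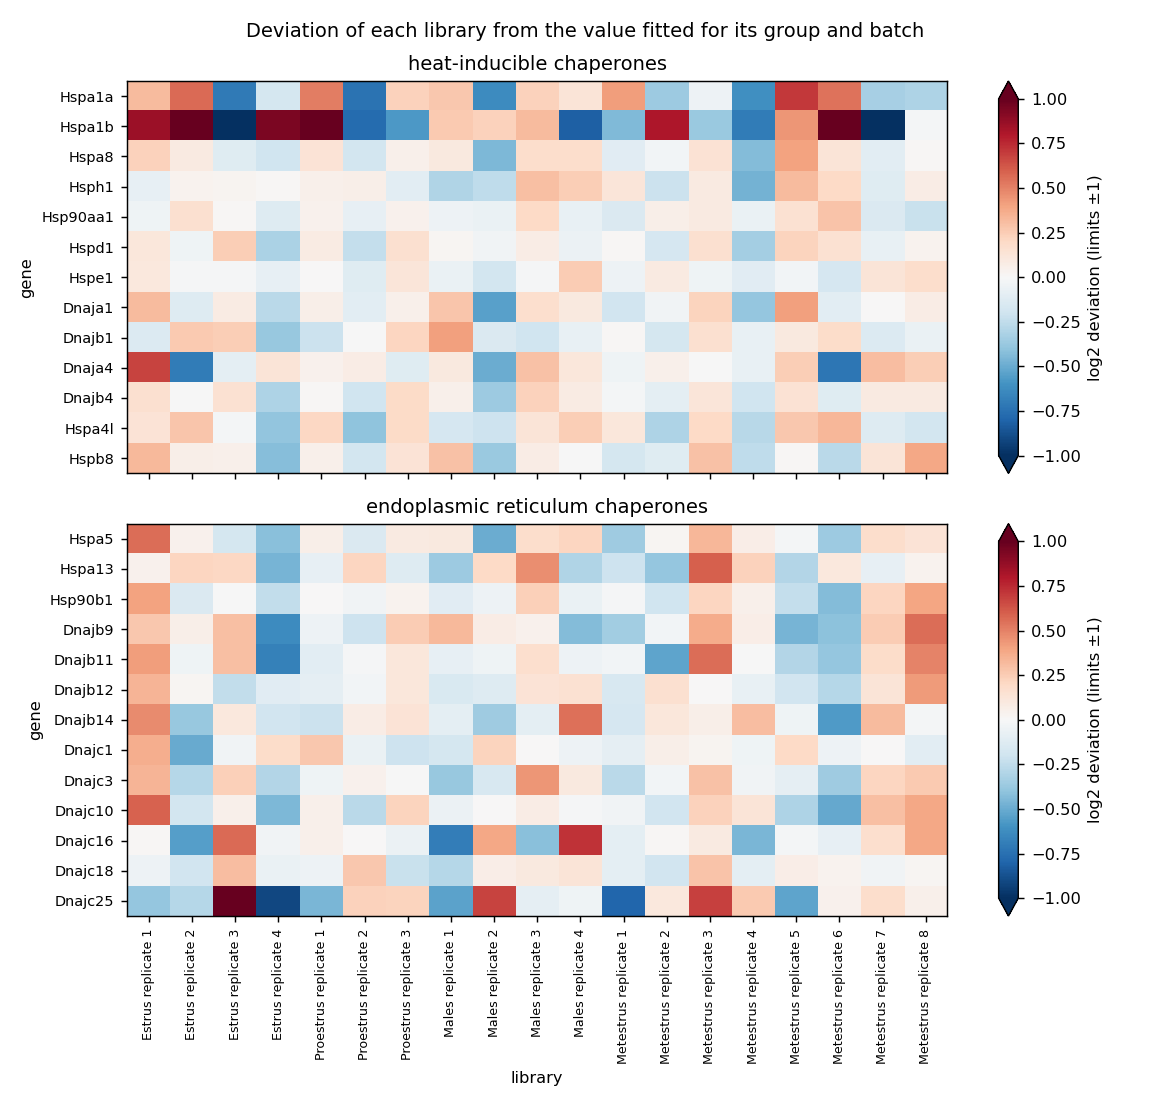
Deviation of each library (columns, estrus, proestrus, males and metestrus from left to right) from the level fitted for its group and batch, on the log2 scale with colour limits at -1 and 1, for the 13 heat-inducible and the 13 endoplasmic reticulum members (rows). Metestrus replicate 3 is above its fitted value in 13 of 13 endoplasmic reticulum members, and Metestrus replicate 4 is below it in 13 of 13 heat-inducible members.

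Of the 13 members of the heat-inducible list, 0 passed in any comparison. Fold changes in estrus against proestrus were positive for 10 of them (median 0.25, range -0.86 to 0.58), and in males against metestrus for 6 (median -0.01). Dnajb1, the inducible Hsp40 that partners Hspa1a, was 10.65, 11.05, 11.03 and 9.89 in estrus, 9.92 to 10.21 in the 3 proestrus libraries, and 10.18 to 10.58 (median 10.34) in metestrus. Estrus replicates 1 to 3 were above every library of proestrus and metestrus, while Estrus replicate 4 was the lowest of all. Males had 10.95, 10.40, 10.34 and 10.47, so Males replicate 1 lay above Estrus replicate 1. The log2 fold change in estrus against proestrus was 0.57 (SE 0.19, 95% interval 0.17 to 0.97, limma adjusted p = 0.150), and without Estrus replicate 4 it was 0.79 (adjusted p = 0.0372). With any other estrus or proestrus library left out, or with the missing directions counted, Dnajb1 did not pass. Dnajb5, which binds Hsc70, was 10.19, 9.90 and 9.76 in proestrus and 10.20 to 10.87 (median 10.57) in metestrus, without overlap, with a log2 fold change of -0.61 (SE 0.23, limma adjusted p = 0.234). Dnajb13 scattered from 0.73 to 5.34 in proestrus, and its interval against metestrus ran from -4.32 to 0.18. The 4 type A genes had positive fold changes in males against metestrus (median 0.22), and Dnaja1, the main cytosolic one, was 13.23, 12.41, 13.12 and 13.05 in males and 12.37 to 13.17 in metestrus, with a 95% interval that included 0.

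The 25 type C genes, the most varied J-domain group, gave 0 calls. Dnajc21, which helps the large ribosomal subunit mature, was 9.09, 7.44, 7.41 and 8.94 in estrus and 8.48 to 9.76 (median 9.26) in metestrus, a log2 fold change of -0.96 (SE 0.39, limma adjusted p = 0.363), and 2 of the 4 estrus libraries lay inside the metestrus range. Dnajc12, a partner of the aromatic amino acid hydroxylases, was 10.09, 9.96, 9.85 and 9.30 in estrus and 9.22, 9.42 and 9.27 in proestrus, a fold change of 0.48 (SE 0.20, limma adjusted p = 0.252). Dnajc17, tied to splicing, was 9.27, 8.72, 9.42 and 9.14 in males and 8.46 to 8.98 in metestrus, a fold change of 0.40 (SE 0.18, limma adjusted p = 0.895). Dnajc27, a small GTPase with a J-domain, was 9.95, 10.16 and 9.09 in proestrus and 9.97 to 10.75 in metestrus, with a 95% interval of -1.07 to 0.08. Among members of vesicle traffic, Dnajc5 (cysteine string protein) was 12.26 to 12.76 over all 19 libraries, Dnajc6 (auxilin) had -0.25 (95% interval -0.63 to 0.12) in males against metestrus, and Dnajc13 had -0.37 (SE 0.28) in proestrus against metestrus. The members that were not named had adjusted p-values above 0.05 in each of the 4 comparisons.

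Groups of a member that did not overlap were about as common as in the background. They numbered 4 of 64 in proestrus against metestrus (Hspb7, Dnajb5, Dnajc15 and Dnajc30), where 8.73% of all genes did not overlap, and 3 in estrus against metestrus (Hspa14, Dnajc15 and Dnajc1, against 3.33%). In estrus against proestrus they numbered 7 (Hspb7, Hspa14, Hspa1l, Dnajb12, Dnajb3, Dnajc16 and Hsph1), against 9.06%.

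Single libraries recurred across members. Estrus replicate 4, the estrus library with the lowest sum, was the lowest estrus library in 38 of 64 members (59.4%, against 37.1% of all genes), and Estrus replicate 1 was the highest in 37 (57.8% against 36.8%). Among males, replicate 2, with the lowest sum, was the lowest library in 30 members (46.9% against 38.5%), and replicate 1, with the highest sum of all 19 libraries, was the lowest in 22 (34.4% against 21.9%). Males replicate 3 was the highest male library in 28 members (43.8% against 24.4%). Metestrus replicate 4 was the lowest of 8 metestrus libraries in 22 members (34.4% against 23.1%) and Metestrus replicate 5 the highest in 19 (29.7% against 13.4%). The part of a library's sum in these values was not tested.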

How the data were processed

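Ribosome-bound RNA of cortical astrocytes was measured in 19 libraries, and 1 table of the whole series was used. The authors deposited log2 values per gene, and base 2 follows from the values themselves, whose powers of 2 sum to 19838000 to 25609600 per library. STAR, Salmon, edgeR and the build GRCm39 are named in the submitters' processing notes without versions. The sources used here give no scaling, pseudocount or use of strand. The name of the table points to an adjustment for surrogate variables. After centring each gene the values spanned 14 of 18 possible dimensions, so 4 directions of variation are missing. The model has 13 residual degrees of freedom and its residuals have rank 11. An alternative counts the 2 directions missing from the residuals, and it is the one meant by removed or missing directions counted. Read depth is unknown, and no counting interval or floor is given.

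Groups came from the labels. Genes with a log2 value of at least 3.32 in at least 3 libraries were fitted with limma 3.58.1 in R 4.3.3 (robust trend, group and batch as terms, all 19 libraries), with two-sided tests, Benjamini-Hochberg adjustment over 20644 genes and a threshold of 0.05. The fitting code was run on simulated data with independent noise in each library. That noise lacks no direction, so the run does not test the effect of the missing directions on the p-values. Figures and sequence tables were made with Python 3.11.15, pandas 2.3.3, numpy 2.4.6 and matplotlib 3.10.9. The number of per-sample columns left unused was 0. Coordinates are those of RefSeq GRCm38.p6, and none were converted to the build of the table.

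The members and lists were chosen with earlier results of these data known. In each comparison the text names the members past the threshold, the 5 with the smallest p in each direction, the main heat-inducible and endoplasmic reticulum chaperones, and the 3 members with the largest and the 3 with the smallest spread. From the pathway lists it names genes past the threshold and some of the 2 with the smallest p. Members whose groups did not overlap were named after their values were seen. Alternatives were no batch term, the missing directions counted, no robust prior, libraries centred on the median, other filters, only batches holding both groups, each library left out and, for males, a block on title numbers.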

Additional observations from a re-analysis of the deposited data

Results flagged for a closer look

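In groups of 4 to 8 libraries, the levels of 35 named members were searched for a library far from the others of its group by Dixon's criterion, and 10 of 105 groups held one. Chance flags about 1 in 20 groups. The 105 groups share the same libraries, and some members were named for their p or spread. The share over all tested genes was not computed, so 10 is not read as an excess. The 10 values came from 5 libraries, 9 of them from the 4 males and 1 from estrus.

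Males replicate 2 stood low in 3 Hsp70 genes: the level was 14.55 for Hspa8 (next male 15.10), 7.56 for Hspa1a (next male 8.32) and 10.66 for BiP (Hspa5, next male 11.25). The same library stood high for Hspa12a at 10.22 (next male 9.94). Males replicate 3 stood high for the Hsp90 genes Hsp90aa1 at 15.24 (next male 14.99) and Hsp90b1 at 11.59 (next male 11.30). Males replicate 1 stood high for Dnajc30 at 11.07 (next male 10.94) and low for Hspa9 at 11.47 (next male 11.63). Males replicate 4 stood low for Hspa1b at 5.23 (next male 6.28), a gene whose reads are hard to separate from those of Hspa1a. Estrus replicate 4 stood low for Hspa13 at 7.60 (next estrus library 8.59).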

How the results depend on the processing

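Named members gave 1581 recomputed fold changes, and few of them could lose a call or reverse: the main model held 1 call, and 20 results had an interval without 0. The call of Hspb7 was lost in 9 of its 13 alternatives, 10 values gained a call and 0 of the 20 turned round. The sign differed from the main model in 67 values, such as Hspa12b in estrus against metestrus (-0.61 without Metestrus replicate 1, against 1.16). Calls depended far more on the setting, and the cause was not tested; for all genes they are given as percent of genes tested. Without a batch term 1.75% passed in estrus against proestrus (0.94% in the main model), 4.35% in estrus against metestrus (0.0872%), 5.55% in proestrus against metestrus (0.988%) and 0.0484% in males against metestrus (0.0242%), and the members numbered 2 (Hspa14 and Hspb7), 2 (Hspa14 and Hspd1), 2 (Dnajb5 and Hspb7) and 0, with 8 in the F test. With the missing directions counted, 0.252%, 0% and 0.363% passed in the 3 stage comparisons, and 0 members in estrus against proestrus. The stricter filter, which tests fewer genes and leaves out Hspb7, gave 0.505%, 0%, 0.266% and 0.00701% in the 4 comparisons and 0 members. Only batches holding both groups, with fewer libraries, gave 0%, 0% and 0.00484% in the stage comparisons and 0 members. Centring libraries on the median gave 1.5% and 3 members (Hspa14, Hspb7 and Hspd1) in estrus against proestrus. With 1 library left out, 0.32% (without Proestrus replicate 1) to 2.08% (without Estrus replicate 4) passed in estrus against proestrus, 0% (without Estrus replicate 2 or Metestrus replicate 1) to 0.271% (without Metestrus replicate 3) in estrus against metestrus, 0.329% (without Metestrus replicate 1) to 0.92% in proestrus against metestrus, and 0.0242% to 0.0388% (without Males replicate 2) in males against metestrus. Members in estrus against proestrus numbered 0 to 3, with 3 (Dnajb1, Hspa14 and Hspd1) without Estrus replicate 4 and 0 without any 1 of the other estrus or proestrus libraries. The adjusted p of Hspb7 in estrus against proestrus ran from 0.0234 to 0.213 over its alternatives. In batch 4 the titles of males and metestrus share the numbers 1 to 4. Deviations from the group means correlated at -0.2 to 0.151 across genes within the 4 same-numbered pairs, over 0.1 in 1 pair. Of the 4 males, 1 correlated best with its own number. These values gave no sign of pairing. They cannot exclude it, because the deposited values lack 4 directions of variation. A replicate block on the title numbers, chosen after seeing the data, gave 0.0242% of genes and 0 members in males against metestrus, as without it. The other comparisons share no such numbers. Low members such as Hspa12b, Hspb3 and Dnajb13 were limited by their spread.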
